A study of Mus musculus with 4 samples.

Results

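DNA synthesis and replication fork genes are those whose products make the nucleotides, copy the DNA strands and rebuild chromatin behind the moving fork. They were read on 4 two-colour arrays of mouse prostate. The members were a list of 43 genes chosen by function, and every array probe carrying one of their names, or the older names of Cdc45 and Orc1, was taken. By name 40 of the 43 genes were found, with 58 of the 41174 probes of the array. Of these, 38 genes with 47 probes were bright enough to be tested among 24914 probes, and each gene took its value from its brightest probe. The 2 found genes that did not pass the brightness filter were Clspn and Orc1. Rfc1, Gins2 and Dscc1 stood under other names, were matched by accession, and are given apart.

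Each array compared the prostate RNA of 1 mouse, in the red Cy5 channel, with a pool of prostate RNA from 3 wild-type mice in the green Cy3 channel. The first genotype, Rb1R654W/F:Trp53F/F:PB-cre4, is called mutant (2 mice) and is described by the series as deficient in E2F binding. The second, Rb1F/F:Trp53F/F:PB-Cre4, is called null (2 mice). Both carried floxed Trp53 and the Cre transgene driven by the probasin promoter, which acts in prostate epithelium, so floxed alleles in stroma and blood cells are not its targets. The mice were 60 days old, of a mixed C57BL/6:129/SVJae:FVB background, and untreated. The design sets the E2F binding deficient retinoblastoma protein against its loss, and both against wild-type tissue. Both genotypes also differ from the wild-type pool by floxed Trp53 and Cre. The parts of Rb1, Trp53 and Cre in a ratio of mouse over pool therefore cannot be told apart.

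Cells copy their genome once per division, in S phase. The retinoblastoma protein holds E2F transcription factors inactive until a cell commits to S phase, and the promoters of many replication genes carry E2F elements. In an adult prostate most epithelial cells rest. In bulk tissue a lower number of cycling cells and less RNA per cell cannot be told apart.

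Values are log2 ratios of mouse over pool after loess normalisation within each array. A value of 0 means a level equal to that of the pool, and a value of 1 means a doubling. The pool is 1 sample shared by all arrays, so anything particular to it moves all 4 ratios of a gene together. The dyes were not swapped, and a dye effect particular to a gene cannot be told apart from a difference between mouse and pool. Precision is limited by the number of arrays. Of the targeted genes, Rb1 read -0.65 and -0.24 in the mutant mice, against 0.09 and -0.87 in the null mice, and Trp53 by its brightest probe 0.14 and 0.12, against 0.53 and 0.08. The deleted exons were not mapped to these probes, so the values are no check of the labels. The array of null mouse 1 stood apart. The median background-subtracted red signal was 90.1 and 81.9 on the arrays of mutant mice 1 and 2, against 20.5 and 55.1 on those of null mice 1 and 2, while the pool channel lay between 24.2 and 24.9. The median of 11 heat-shock genes was 0.12 and 0.19 in the mutant mice, against 3.50 and 0.37 in null mice 1 and 2. Of 12 luminal and secretory prostate markers, all were well above background in all 4 mice. Their medians were 0.26 and 0.08 in mutant mice 1 and 2, against -0.03 and -0.21 in null mice 1 and 2. The genotypes did not overlap for 5 of the markers, all higher in mutant, a pattern shown by 14.9% of gene rows. Sbp had no value in null mouse 1 and could not be scored for overlap. It was lower in mutant, at -0.91 and -1.10 in the mutant mice, against -0.22 in null mouse 2. Null mouse 1 did not lie to 1 side over these markers, and it was the lowest mouse for 4 of them, against 38.5% of gene rows. Msmb, which encodes a secreted prostate protein, read 1.93 and 0.68 in the mutant mice, against -3.13 and -0.17 in the null mice. Krt8 read -0.13 and -0.49 in the mutant mice, against 1.30 and -0.39 in the null mice. Krt18 read 0.27 and -0.07 in the mutant mice, against 0.85 and -0.11 in the null mice. Seminal vesicle markers were below the pool in all 4 mice, with medians over 5 genes of -4.14 and -0.79 in the mutant mice, against -5.30 and -3.72 in the null mice. Summary counts and medians over the replication fork genes are therefore also given without null mouse 1. Means over all mice weigh the genotypes equally, so null mouse 2 then carries as much weight as both mutant mice.

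Most replication fork genes were modestly above the wild-type pool in 3 of the 4 mice, and none differed between mutant and null beyond the error. Over the 38 genes the median log2 ratio was 0.27 in mutant mouse 1, 0.27 in mutant mouse 2, -0.10 in null mouse 1 and 0.43 in null mouse 2. The median of the genes' means over all 4 mice was 0.21, and 0.37 without null mouse 1, with the genotypes weighed equally. The medians over all 16981 gene rows, each the brightest probe of a name, were 0.03, 0.02, -0.01 and 0.03 in the same order. Null mouse 1 had the lowest value of the 4 mice for 28 of the 38 genes, or 73.7%, and this held for 38.5% of all gene rows. There were 31 genes above 0 in mutant mouse 1, 32 in mutant mouse 2, 14 in null mouse 1 and 34 in null mouse 2, against 53.9%, 54.2%, 49.4% and 55.6% of gene rows in those mice. The part of the low signal and heat-shock level of null mouse 1 in its lower values was not tested.

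**Figure D1:**
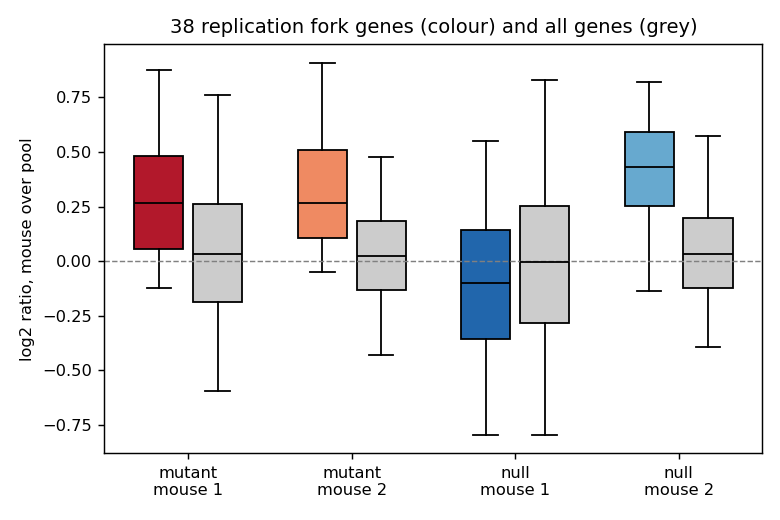
Log2 ratio of mouse over wild-type pool in each mouse, for the 38 measured replication fork genes (coloured boxes) and for all gene rows (grey boxes); boxes span the quartiles with the median as a line, and whiskers run from the 5th to the 95th percentile. The coloured medians lie at 0.27, 0.27 and 0.43 in mutant mice 1 and 2 and null mouse 2, and at -0.10 in null mouse 1, while the grey medians lie between -0.01 and 0.03.

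No member passed a Benjamini-Hochberg adjusted p of 0.05 in limma in any of 4 comparisons. The smallest adjusted p among members was 0.985 for mutant minus null, 0.453 for mutant minus pool, 0.473 for null minus pool and 0.178 for all 4 mice minus pool. Of the 24914 probes tested, 0, 1, 0 and 3 passed in those comparisons, or 0%, 0.00401%, 0% and 0.012%. With each array centred on its median in place of loess, 11 of the 38 members passed for all 4 mice minus pool, as did 4260 of the 24914 probes. The median of all tested probes was then 0.37 rather than 0.02. At an unadjusted p under 0.05, 12 members were above the pool and 1 was below it over all 4 mice, against 9.97% of gene rows above and 8.15% below. The 12 are 31.6% of the measured members. For mutant minus pool 8 members were above and 0 below, where the gene rows gave 6.3% and 4.58%. For null minus pool 6 were above and 1 below, where the gene rows gave 5.52% and 5.14%. Without null mouse 1 the null group is 1 mouse whose spread is taken from the mutant mice, so counts at that level are not given. The members' median for mutant minus pool was 0.27 with and without null mouse 1. For null minus pool it was 0.13 with both null mice and 0.43 in null mouse 2 alone. For mutant minus null with all 4 mice the limma count at that level was 0 members in either direction, where 1.01% of gene rows were higher in mutant and 1.15% lower.

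There were 11 members above 0 on all 4 arrays, or 28.9% of the 38, against 17.2% of gene rows. These were Ung, Pcna, Prim1, Pola1, Hells, Rpa3, Slbp, Dnmt1, Prim2, Rfc2 and Dut. Rpa1 alone was below 0 on all 4 arrays, a pattern shown by 14.1% of gene rows. Without null mouse 1, 25 members, or 65.8%, were above 0 on the 3 remaining arrays, against 29.3% of gene rows. Of these 25, 14 were below 0 in null mouse 1, a combination shown by 12% of gene rows. Both mutant mice were above 0 for 27 members, or 71.1%, against 37.1% of gene rows, and both null mice for 13 members, or 34.2%, against 30.6%. Both mutant mice were below 0 for 2 members, against 29% of gene rows, and both null mice for 3, against 25.6%.

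**Figure D2:**
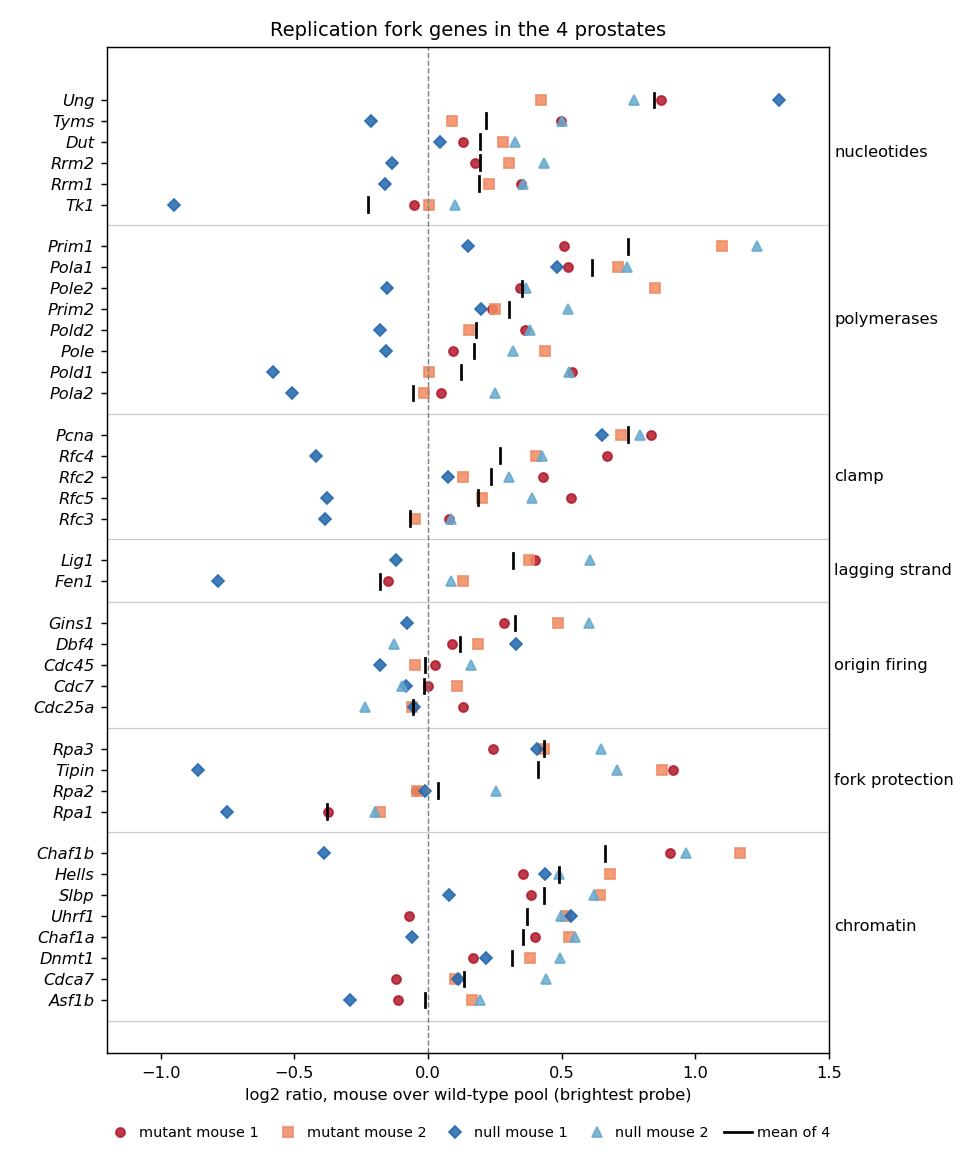
Log2 ratio of mouse over wild-type pool (horizontal axis) for each of the 38 measured replication fork genes (rows, by role, then by mean), with 1 point per mouse and a black tick for the mean of 4. Null mouse 1 (dark blue diamonds) is the lowest point of 28 rows and Rpa1 is the only row with every point below 0.

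Pcna, the ring-shaped clamp that holds DNA polymerases on the template, had the smallest unadjusted p of the list over all 4 mice. Its log2 ratio was 0.84 and 0.72 in mutant mice 1 and 2, against 0.65 and 0.79 in null mice 1 and 2. The genotypes overlapped, and null mouse 1, though the lowest, had a gap of only -0.13 to the mean of the other mice. Over all 4 mice the mean was 0.75 ± 0.09 (SE from limma, n = 4), a 1.68-fold ratio to the pool, with an unadjusted p of 0.00041 and an adjusted p of 0.178 in limma. Without null mouse 1 the mean was 0.79, with the genotypes weighed equally. Mutant minus null was 0.06 ± 0.18 (SE). The probe was printed 10 times on each array. The spots had an SD of 0.09 and 0.14 in mutant mice 1 and 2 and of 0.09 and 0.04 in null mice 1 and 2. The lowest of the 40 spots read 0.40, and the 4 mouse means had an SD of 0.08. The 60-base probe lies on chromosome 2 at 131990537 to 131990674 in the mm7 build of the files, a span of 138 bases, so that it crosses an intron and reads spliced RNA. It is shown because it is the member read by the most spots.
Pcna probe: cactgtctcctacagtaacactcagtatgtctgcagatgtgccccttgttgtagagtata

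**Figure D3:**
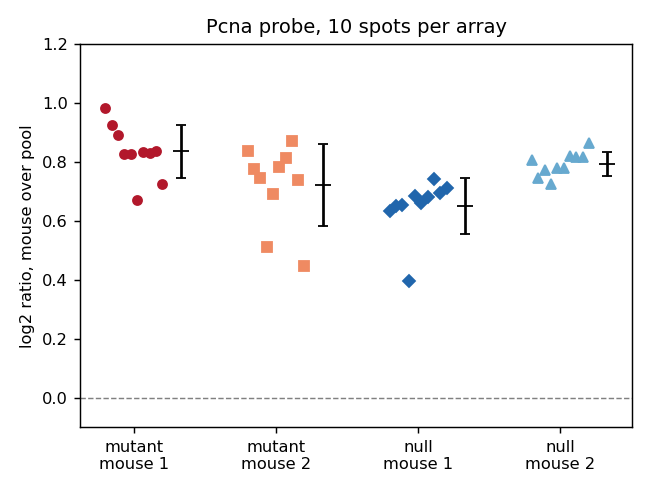
Log2 ratio of mouse over wild-type pool at each of the 10 Pcna spots of every array (coloured points), with the mean ± SD over spots (black). The spot means are 0.84 and 0.72 in the mutant mice, against 0.65 and 0.79 in the null mice.

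The clamp is opened and loaded by replication factor C. Rfc2, a small subunit of that loader, was above 0 in every mouse, at 0.43 and 0.13 in mutant mice 1 and 2, against 0.07 and 0.30 in null mice 1 and 2, and a second Rfc2 probe read 0.34, 0.26, -0.01 and 0.25 in that order. Rfc4 read 0.67 and 0.40 in the mutant mice, against -0.42 and 0.43 in the null mice. Rfc5 read 0.54 and 0.20 in the mutant mice, against -0.38 and 0.39 in the null mice. Both loader subunits had null mouse 1 the lowest and the other 3 mice above 0. Rfc3, nearer the pool, read 0.08 and -0.05 in the mutant mice, against -0.38 and 0.09 in the null mice. The large subunit Rfc1, found by accession, read 0.13 and -0.33 in the mutant mice, against -0.49 and 0.01 in the null mice. Dscc1, a subunit of an alternative clamp loader, read 0.28 and 0.49 in the mutant mice, against -0.04 and 0.26 in the null mice. A second, dimmer Dscc1 probe read 0.10 and 0.35 in the mutant mice, against 0.05 and 0.19 in the null mice. Of the 5 clamp and loader genes found by name, null mouse 1 was the lowest mouse for all 5.

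Polymerase alpha with its primase starts each new strand. Pola1, the catalytic subunit, read 0.52 and 0.71 in mutant mice 1 and 2, against 0.48 and 0.74 in null mice 1 and 2. The mutant values lay inside the null range, and the mean over all 4 mice was 0.62 ± 0.10 (SE, n = 4), with an unadjusted p of 0.0016 and an adjusted p of 0.193 in limma. Prim1, the primase subunit that makes the RNA primer, read 0.51 and 1.10 in the mutant mice, against 0.15 and 1.23 in the null mice. Prim1 differed more within each genotype than between them, and its mean was 0.75 ± 0.21 (SE, n = 4; adjusted p = 0.224 in limma). With the genotypes weighed equally, that mean was 1.02 without null mouse 1 and 0.48 without null mouse 2. The plain mean of the mice other than null mouse 1 was 0.95. Prim2, the large primase subunit, read 0.24 and 0.25 in the mutant mice, against 0.20 and 0.52 in the null mice. Pola2, the accessory subunit of polymerase alpha, read 0.05 and -0.01 in the mutant mice, against -0.51 and 0.25 in the null mice. The 4 subunits of this complex therefore covered means from -0.06 for Pola2 to 0.75 for Prim1.

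Polymerases epsilon and delta extend the leading and lagging strands. Pole, the catalytic subunit of epsilon, read 0.09 and 0.44 in the mutant mice, against -0.15 and 0.32 in the null mice. Pole2, its second subunit, read 0.34 and 0.85 in the mutant mice, against -0.15 and 0.37 in the null mice. Both epsilon genes were above 0 in 3 mice and below 0 in null mouse 1. Pold1, the catalytic subunit of delta, read 0.54 and 0.01 in the mutant mice, against -0.58 and 0.53 in the null mice, and a second probe read 0.26, 0.11, -0.45 and 0.62 in that order. Pold2, its regulatory subunit, read 0.36 and 0.15 in the mutant mice, against -0.18 and 0.38 in the null mice. Null mouse 1 was the lowest of the 4 mice for all 8 polymerase and primase genes. The medians over the 8 genes were 0.35 and 0.34 in mutant mice 1 and 2, against -0.15 and 0.45 in null mice 1 and 2.

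On the lagging strand Fen1 cuts away the RNA primer flap and Lig1 seals the nick. Lig1 read 0.40 and 0.38 in the mutant mice, against -0.12 and 0.61 in the null mice. Fen1 read -0.15 and 0.13 in the mutant mice, against -0.78 and 0.08 in the null mice. Lig1 was above the pool in 3 mice, whereas Fen1 lay near the pool in the same 3 mice, and both were lowest in null mouse 1.

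Genes of nucleotide supply and uracil removal did not share a single pattern. Ung, the uracil-DNA glycosylase that removes uracil from DNA, read 0.87 and 0.42 in mutant mice 1 and 2, against 1.31 and 0.77 in null mice 1 and 2. It was the only gene of the 6 for which null mouse 1 was not the lowest, and in that mouse it was the highest. Its mean was 0.84 ± 0.14 (SE, n = 4), a 1.80-fold ratio, with an adjusted p of 0.193 in limma. With the genotypes weighed equally, the Ung mean was 0.71 without null mouse 1. Dut, the dUTPase that keeps uracil out of the nucleotide pool, read 0.13 and 0.28 in the mutant mice, against 0.05 and 0.33 in the null mice. A second Dut probe read 0.46 and 0.47 in the mutant mice, against 0.43 and 0.75 in the null mice, so both Dut probes were above 0 in every mouse and differed in size.

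Rrm1 and Rrm2 are the large and small subunits of ribonucleotide reductase, which makes deoxyribonucleotides. Rrm1 read 0.35 and 0.23 in the mutant mice, against -0.16 and 0.35 in the null mice. Rrm2 read 0.18 and 0.30 in the mutant mice, against -0.13 and 0.43 in the null mice. Both subunits were above the pool in the same 3 mice and below it in null mouse 1. Tk1, the thymidine salvage kinase, read -0.05 and 0.01 in the mutant mice, against -0.95 and 0.10 in the null mice. Apart from null mouse 1, where it had the lowest value of any member in any mouse, Tk1 lay between -0.05 and 0.10.

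Tyms, the thymidylate synthase, read 0.50 and 0.09 in the mutant mice, against -0.21 and 0.50 in the null mice. Its second kept probe read 0.41 and 0.12 in the mutant mice, against -0.19 and 0.41 in the null mice. These probes share a run of 23 bases, shown in capitals, and so are not independent readings. The first lies on chromosome 5 at 29093977 to 29094036 (mm7), and the second spans 894 bases from 29093997 to 29094890 and so crosses an intron. The probe at 29094245 to 29094304 lies inside that intron and was not well above background in any mouse or in the pool. The sequences are given because the Tyms row of largest ratio in the authors' deposited table belongs to the intron probe.
Tyms probe: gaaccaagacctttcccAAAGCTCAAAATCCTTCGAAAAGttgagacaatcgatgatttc
Tyms probe across the intron: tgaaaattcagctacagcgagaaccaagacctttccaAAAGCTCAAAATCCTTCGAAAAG
Tyms probe in the intron: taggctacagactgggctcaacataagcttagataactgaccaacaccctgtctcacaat

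Genes that switch the helicase on at origins had medians over 5 genes of 0.09 and 0.11 in mutant mice 1 and 2, against -0.08 and -0.10 in null mice 1 and 2. Cdc45, part of the active helicase, read 0.03 and -0.05 in the mutant mice, against -0.18 and 0.16 in the null mice. Gins1, a subunit of the GINS complex that joins it, read 0.29 and 0.49 in the mutant mice, against -0.08 and 0.60 in the null mice. A second Gins1 probe read 0.50 and 0.83 in the mutant mice, against -0.22 and 0.49 in the null mice, and by that dimmer probe the genotypes did not overlap. Both Gins1 probes were above 0 in 3 mice and below 0 in null mouse 1. Gins2, found by accession, read 0.51 and 0.78 in the mutant mice, against -0.01 and 0.61 in the null mice. Gins2 was above the pool in the same 3 mice and lay at it in null mouse 1. The kinase Cdc7, which fires origins, read 0.00 and 0.11 in the mutant mice, against -0.08 and -0.10 in the null mice. Its activator Dbf4 read 0.09 and 0.19 in the mutant mice, against 0.33 and -0.13 in the null mice. Cdc25a, the phosphatase that activates cyclin-dependent kinases, read 0.13 and -0.06 in the mutant mice, against -0.05 and -0.24 in the null mice. A second Cdc25a probe read 0.23 and -0.10 in the mutant mice, against 0.15 and -0.16 in the null mice. Orc1, the origin recognition subunit, was well above background in the mouse channel of 1 array and in no pool channel, so no ratio is given.

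Replication protein A coats the single-stranded DNA exposed at forks. Its large subunit Rpa1 read -0.37 and -0.18 in mutant mice 1 and 2, against -0.75 and -0.20 in null mice 1 and 2. Every mouse was below the pool. With the genotypes weighed equally, the mean was -0.24 without null mouse 1. Over all 4 mice the mean was -0.38 ± 0.13 (SE, n = 4, adjusted p = 0.251 in limma). Centring each array on its median in place of loess put this mean at 0.36, so its side of 0 depends on the normalisation. Rpa2, the middle subunit, read -0.04 and -0.04 in the mutant mice, against -0.01 and 0.25 in the null mice. Rpa3, the small subunit, read 0.25 and 0.44 in the mutant mice, against 0.41 and 0.65 in the null mice. The 3 subunits of a single complex therefore lay below, near and above the pool, and Rpa3 had a mean of 0.43 ± 0.10 (SE, n = 4; adjusted p = 0.203 in limma).

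Tipin stabilises stalled forks together with Timeless. It read 0.92 and 0.88 in mutant mice 1 and 2, against -0.86 and 0.71 in null mice 1 and 2. Tipin had the largest gap of the list between null mouse 1 and the mean of the other mice, -1.70. Clspn, the claspin of the fork checkpoint, was not well above background in any mouse or in the pool.

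Chromatin copying genes deposit histones and restore DNA methylation behind the fork. Chaf1b, a subunit of chromatin assembly factor 1, read 0.91 and 1.17 in the mutant mice, against -0.39 and 0.97 in the null mice. Chaf1a, the large subunit, read 0.40 and 0.53 in the mutant mice, against -0.06 and 0.55 in the null mice. Both subunits were above the pool in 3 mice and below it in null mouse 1. Asf1b, the chaperone that hands histones to them, read -0.11 and 0.16 in the mutant mice, against -0.29 and 0.20 in the null mice. Slbp, which binds the stem-loop of histone mRNAs, read 0.39 and 0.65 in the mutant mice, against 0.08 and 0.62 in the null mice. Asf1b thus lay around the pool, while Slbp was above it in every mouse.

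Hells, a chromatin remodeller needed for DNA methylation, read 0.36 and 0.68 in mutant mice 1 and 2, against 0.44 and 0.49 in null mice 1 and 2. The null values fell inside the mutant range, and the mean was 0.49 ± 0.10 (SE, n = 4; adjusted p = 0.196 in limma). With Agilent's processed signals that mean was 1.01 (adjusted p = 0.214 in limma). Its partner Cdca7 read -0.12 and 0.10 in the mutant mice, against 0.11 and 0.44 in the null mice. Dnmt1, the maintenance methyltransferase, read 0.17 and 0.38 in the mutant mice, against 0.22 and 0.49 in the null mice. Uhrf1, which brings Dnmt1 to hemimethylated DNA, read -0.07 and 0.52 in the mutant mice, against 0.53 and 0.50 in the null mice, and its second probe 0.28 and 0.65 in the mutant mice, against 0.21 and 0.40 in the null mice. By the brightest probe mutant mouse 1 had the lowest value for Hells, Cdca7, Dnmt1 and Uhrf1, while null mouse 1 was the lowest by the second Uhrf1 probe. By the brightest probe null mouse 1 was the lowest for the other 4 of the 8 chromatin copying genes, Chaf1a, Chaf1b, Asf1b and Slbp.

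Between the genotypes the median of mutant minus null over the 38 genes was 0.14, against 0.01 over gene rows, and 30 of the 38 estimates were positive, against 8868 of 16981 gene rows. This median was -0.12 without null mouse 1 and 0.41 without null mouse 2, so its sign rests on null mouse 1. The mutant and null values did not overlap for 4 members, or 10.5%, against 29.4% of gene rows. With 2 mice per genotype an exact permutation test cannot go below p = 0.333 (two-sided). Tipin and Cdc7 were higher in both mutant mice than in both null mice. Mutant minus null was 0.97 ± 0.52 (SE; adjusted p = 0.985 in limma) for Tipin, and 0.19 without null mouse 1. For Cdc7 it was 0.14 ± 0.18 (SE), and its second kept probe read -0.42 and -0.10 in the mutant mice, against -0.15 and -0.32 in the null mice, which overlap. Cdca7 and Rpa2 were lower in both mutant mice, with mutant minus null of -0.29 ± 0.21 and -0.16 ± 0.19 (SE). With arrays centred on their medians in place of loess these became 0.23 for Cdca7 and 0.40 for Rpa2. The second Rpa2 probe read 0.23 and -0.01 in the mutant mice, against 0.12 and 0.39 in the null mice, which overlap. The SE of mutant minus null lay between 0.18 and 0.52 over the members, and even the 0.97 of Tipin did not pass the test.

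Promoters were examined because the mutant is described as deficient in E2F binding. Windows from 250 bases before to 50 bases after the start of transcription, from RefSeq on GRCm38.p6, were given for 36 of the 43 members. Pole, Prim2, Gins1, Tipin, Dscc1, Rfc2 and Gins2 had none. An E2F element was searched on both strands as TTTCCCGC, TTTCGCGC, TTTGCCGC or TTTGGCGC, and in a shorter form that leaves off the first T and so holds every longer match. The 8-letter element was in a window of 12 of the 36 members, or 33.3%, against 704 of 27025 genes, or 2.6%. The 7-letter form was in 23, or 63.9%, against 2936, or 10.9%. Among the 9 members with a window that were above 0 on all 4 arrays, 3 held the 8-letter element, and among the 24 other measured members 7 did. Such a match is a run of letters and not a shown binding site.

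Promoter sequences of 5 members are given on the strand of the gene, with matches to the 7-letter form in capitals. They show members above the pool with the element (Pola1 and Hells), a member above it without (Pcna), the gene below it (Rpa1), and Chaf1b, high in 3 mice. Pola1 lies on the minus strand at chrX:93632106-93632405, and 1 of its 4 matches extends to 8 letters. Hells lies on the plus strand at chr19:38930740-38931039, with 2 matches, of which 1 extends to 8 letters. Chaf1b lies on the plus strand at chr16:93883651-93883950 and has 2 matches of the shorter form alone. Pcna lies on the minus strand at chr2:132253131-132253430 and Rpa1 on the minus strand at chr11:75348334-75348633, both with no match to these letters in the window. All coordinates are GRCm38.p6.
Pola1 promoter: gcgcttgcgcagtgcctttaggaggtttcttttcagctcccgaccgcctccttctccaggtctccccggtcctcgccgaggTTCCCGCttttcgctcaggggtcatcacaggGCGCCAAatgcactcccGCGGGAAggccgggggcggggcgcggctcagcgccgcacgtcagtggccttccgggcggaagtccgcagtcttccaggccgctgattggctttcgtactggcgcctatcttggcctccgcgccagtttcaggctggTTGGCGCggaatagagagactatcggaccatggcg
Hells promoter: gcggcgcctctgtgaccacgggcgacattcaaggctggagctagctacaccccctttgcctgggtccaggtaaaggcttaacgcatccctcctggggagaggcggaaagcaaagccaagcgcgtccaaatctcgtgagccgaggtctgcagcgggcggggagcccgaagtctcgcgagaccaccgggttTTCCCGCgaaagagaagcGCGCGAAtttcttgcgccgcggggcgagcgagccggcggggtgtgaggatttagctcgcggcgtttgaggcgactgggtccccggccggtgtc
Chaf1b promoter: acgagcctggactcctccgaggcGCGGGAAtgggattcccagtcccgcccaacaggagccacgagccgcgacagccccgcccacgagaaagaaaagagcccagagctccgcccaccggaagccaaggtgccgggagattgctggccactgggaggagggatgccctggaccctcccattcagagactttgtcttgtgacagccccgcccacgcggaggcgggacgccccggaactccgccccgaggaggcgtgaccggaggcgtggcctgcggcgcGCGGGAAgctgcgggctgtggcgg
Pcna promoter: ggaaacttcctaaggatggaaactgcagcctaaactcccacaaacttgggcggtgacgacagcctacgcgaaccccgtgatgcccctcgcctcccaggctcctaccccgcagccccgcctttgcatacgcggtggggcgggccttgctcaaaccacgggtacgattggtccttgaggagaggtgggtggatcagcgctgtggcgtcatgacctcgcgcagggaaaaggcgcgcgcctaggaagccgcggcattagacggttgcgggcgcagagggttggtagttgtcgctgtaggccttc
Rpa1 promoter: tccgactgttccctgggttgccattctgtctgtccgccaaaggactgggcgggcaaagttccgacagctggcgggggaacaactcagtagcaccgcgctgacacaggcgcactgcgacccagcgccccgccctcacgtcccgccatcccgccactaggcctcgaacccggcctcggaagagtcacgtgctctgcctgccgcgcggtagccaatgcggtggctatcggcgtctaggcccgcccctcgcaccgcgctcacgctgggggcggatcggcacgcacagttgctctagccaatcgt

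The genes that license origins before S phase, taken here with the licensing inhibitor Gmnn, were outside the list. Of 15 licensing genes 8 were above 0 on all 4 arrays and 0 were below on all 4, against 17.2% and 14.1% of gene rows. None passed the adjusted threshold in any of the 4 comparisons in limma. At an unadjusted p under 0.05 over all 4 mice, 8 were above the pool and 0 below, against 9.97% and 8.15% of gene rows. Without null mouse 1, 12 were above 0 on the 3 remaining arrays, against 29.3% of gene rows. Their medians were 0.50 and 0.46 in mutant mice 1 and 2, against 0.06 and 0.43 in null mice 1 and 2. The helicase subunit Mcm6 read 1.30 and 1.73 in the mutant mice, against 0.41 and 1.70 in the null mice. Mcm3, another subunit, read 1.43 and 1.37 in the mutant mice, against 0.20 and 1.63 in the null mice. Mcm6 and Mcm3 had the highest means of the 15 over all 4 mice, and Mcm10 and Orc3 the lowest, at -0.09 and -0.14. Null mouse 1 was again the lowest for 10 of the 15, against 38.5% of gene rows. The 28 measured genes of a list of 30 other replication genes were nearer the pool, with medians of 0.13 and 0.21 in the mutant mice, against -0.03 and 0.22 in the null mice. Of these 9 were above 0 and 3 below 0 on all 4 arrays, against 17.2% and 14.1% of gene rows. None of them passed in limma. At an unadjusted p under 0.05 over all 4 mice, 8 were above and 2 below, against 9.97% and 8.15% of gene rows. Timeless, the partner of Tipin, read 0.42 and 0.26 in the mutant mice, against 0.29 and 0.42 in the null mice, so that null mouse 1 did not stand apart as it did for Tipin.

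Of 22 genes of G2 phase and mitosis 19 were measured. Of these 0 were above 0 on all 4 arrays and 6 were below 0 on all 4, against 17.2% and 14.1% of gene rows. Their medians were 0.09 and -0.11 in mutant mice 1 and 2, against -0.19 and -0.11 in null mice 1 and 2. None passed in limma. At an unadjusted p under 0.05 over all 4 mice, 0 were above and 2 below, against 9.97% and 8.15% of gene rows. Mki67, the widely used marker of cycling cells, read -0.29 and -0.15 in the mutant mice, against -0.02 and -0.42 in the null mice. The differences between these lists and the replication fork genes were not tested.

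Macrophage markers, like the replication fork genes, had their lowest median in null mouse 1 and their highest in null mouse 2. The medians over 12 markers were 0.75 and 0.48 in mutant mice 1 and 2, against -0.15 and 1.27 in null mice 1 and 2. Null mouse 1 was the lowest for 11 of the 12, against 38.5% of gene rows. All 12 were well above background in every mouse. Lymphocyte markers were nearer the pool, and over the 9 of 12 that passed the medians were 0.04 and 0.04 in the mutant mice, against -0.07 and 0.09 in the null mice. Of the lymphocyte markers 5 were well above background in every mouse. Basal epithelial markers were the reverse in null mouse 1, with medians over 7 genes of -0.31 and -0.41 in the mutant mice, against 1.13 and -0.25 in the null mice. Smooth muscle markers had medians over 9 genes of -0.25 and -0.50 in the mutant mice, against 0.24 and -0.08 in the null mice. The genotypes did not overlap for 7 smooth muscle and 4 basal markers, all lower in mutant, a pattern shown by 14.6% of gene rows. Without overlap, macrophage markers had 1 lower in mutant and 0 higher, and lymphocyte markers 2 lower and 2 higher. The part of these cell types, and of the luminal markers given above, in the values of the replication fork genes was not tested.

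**Figure D4:**
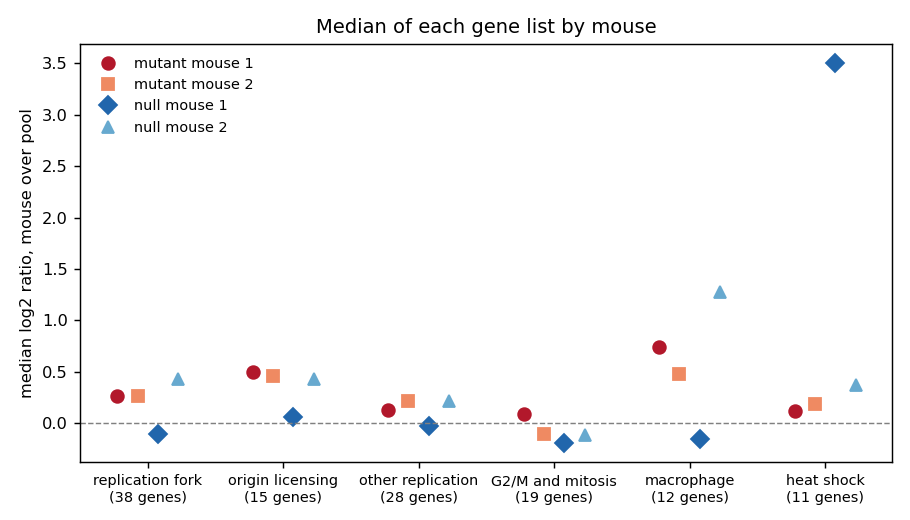
Median log2 ratio of mouse over wild-type pool in each mouse (points) for 6 gene lists, with the number of measured genes under each name. Null mouse 1 is the lowest mouse for the replication, mitosis and macrophage lists and is at 3.50 for heat-shock genes.

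The authors' deposited table gives group mean ratios to the pool and their ratio between genotypes. Its scaling is not stated, its group means did not match the plain means of the arrays' deposited ratios, and it holds only rows with a ratio of at least 1.13. The members have 31 rows in the authors' deposited table, for 25 genes. Of these, 26 are higher in mutant and 5 lower, and 51.7% of all its 26174 rows are higher in mutant. The series has only 2 null mice, so these rows are not independent of null mouse 1. Without that mouse the members' median of mutant minus null in the fit above was -0.12. The largest member ratio in the authors' deposited table, 2.01 for Tyms, belongs to the intron probe that was not well above background here. Among rows whose probe was kept here, the largest ratios in the authors' deposited table were 1.81 for Pole2, 1.71 for Tipin and 1.69 for Chaf1b, each higher in mutant. The authors' deposited table gives Chaf1b a group mean of 2.00 in mutant and 1.18 in null, with SEM of 0.167 and 0.646. In the authors' deposited table Ung is at 1.41 in mutant and 1.95 in null, and Pcna at 1.64 in mutant and 1.44 in null.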

How the data were processed

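The authors' scanner files hold spot intensity per channel and a log10 ratio of red over green, per the file headers. The image software was Agilent Feature Extraction, 9.5.1.1 per the file headers but 8.5 per the submitters' processing notes. At all 119488 readings without a surrogate signal the deposited log10 ratio equalled that of the processed intensity, within 1e-04. The authors' deposited table holds group means as a linear ratio to the pool. All 4 arrays shared a slide.

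Mean signals were corrected with normexp (offset 50) and normalised by loess within each array with limma 3.58.1 (R 4.3.3). The offset draws ratios of dim probes towards 0. Controls took weight 0, flagged spots were dropped, and spots of a probe were averaged. Probes were tested if well above background in both mice of a genotype, or in the pool on all 4 arrays. The log2 ratios were fitted with lmFit and eBayes, with 2 residual degrees of freedom, and p-values were adjusted over all kept probes by Benjamini-Hochberg. Tests against the pool carry no spread among wild-type mice. The fit was tested on simulated data.

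The members and lists were chosen with earlier results of these data known. Named genes were members on 1 side of 0 on all arrays, those whose genotypes did not overlap and the 4 brightest others; values of every other measured member are also given. The main fit did not treat replicate numbers as pairs. The correlation of replicate 1 minus 2 between the genotypes, over probes, was 0.00359, a value that cannot exclude a pairing of the mice.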

Additional observations from a re-analysis of the deposited data

Results flagged for a closer look

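Cdc7 was picked out because its ratio was positive in both mutant mice and negative in both null mice. Mutant mouse 1, at 0.001, lay at the pool, so the pattern rests on a sign. The share of gene rows with such signs was not computed. Its log2 ratios were 0.00 and 0.11 in mutant mice 1 and 2, against -0.08 and -0.10 in null mice 1 and 2, a mutant minus null difference of 0.143. In limma this difference had a standard error of 0.18 and did not pass the threshold. The second kept Cdc7 probe gave -0.42 and -0.10 in the mutant mice, against -0.15 and -0.32 in the null mice, and did not show that pattern of signs.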

How the results depend on the processing

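Of 144 values of named members recomputed under the alternatives, 131 kept their direction and their side of the threshold, 3 reversed and 10 passed the threshold under median centring alone. Direction could change only under Agilent's processed signals or median centring. The other alternatives kept the same array values or left out a mouse. These members were named for lying on 1 side of 0 on all arrays or for genotypes without overlap, which fixes the sign. Centring each array on its median in place of loess moved the median of all tested probes to 0.60 for mutant minus pool, 0.14 for null minus pool, 0.38 for mutant minus null and 0.37 for all 4 mice. Under it the members' medians were 1.03 for mutant minus pool, 0.58 for mutant minus null and 0.70 for all 4 mice, so relative to all probes the members lay 0.33 higher over all 4 mice. Of the 24914 probes tested, it called 0 for mutant minus pool and 4260 for all 4 mice. Among the latter were 11 of the 38 members (Pcna, Pola1, Prim1, Rfc2, Uhrf1, Dnmt1, Slbp, Ung, Hells, Dut and Rpa3). It left 13 members without overlap between the genotypes, with 13 higher in mutant and 0 lower. The share of gene rows without overlap was not computed under it, and the median of all tested probes for mutant minus null was itself 0.38. Median centring also reversed Cdca7 (0.23) and Rpa2 (0.40) for mutant minus null and Rpa1 (0.36) for all 4 mice. The cause was not tested.

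With Agilent's processed signals 0 probes passed for mutant minus pool and 6 for all 4 mice, and the members' median for mutant minus pool was 0.25. With no filter on dim probes 0 passed in both, and that median was 0.27 (0.269). With 1 probe per gene 2 passed for mutant minus pool. With the replicate block 0 passed for mutant minus pool and 0 for all 4 mice, and no member was called.

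Leaving out each mouse in turn gave 0 to 9 probes for mutant minus null, 0 to 2 for mutant minus pool, 0 to 380 for null minus pool and 0 to 325 for all 4 mice, with no member among them; without null mouse 2 the counts were 9, 2, 380 and 325. The members' medians ranged from -0.12 to 0.41 for mutant minus null, 0.265 to 0.274 for mutant minus pool, -0.10 to 0.43 for null minus pool and 0.06 to 0.37 for all 4 mice. Members above 0 on the remaining arrays numbered 11 to 25, and those without overlap between the genotypes 12 to 34, which fewer arrays raise by construction. The lone mouse of a genotype was then assumed to vary like the other genotype. In values for all mice it carried the same weight as the mean of that other genotype. Signal over background limits Cdc45, Clspn and Orc1 most.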
